A study of Mus musculus with 4 samples.

Results

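The 39 interferon-stimulated genes described here were chosen by name, as a fixed list of genes that interferons are known to induce, and not by their values in these libraries. Earlier results of these data were known when the list was chosen. All 39 were found among the 24346 gene symbols of the files, and 38 of them reached a mean of 0.1 FPKM, the fragments of a gene scaled to its exon length and to the mapped fragments of the library, and were tested among 15896 genes. The list was divided by role into transcription factors, the ISG15 system, IFIT proteins, OAS proteins, sensors of RNA or DNA, other antiviral effectors, guanylate-binding proteins (GBP), chemokines, antigen processing and a remaining group. The RNA came from the dorsal skin of male C57BL/6 mice that were 8 weeks old when they began to eat a high-fat, high-cholesterol and bile salt diet, called the NASH diet, for 3 weeks. The Cont-IMQ group ate the NASH diet alone, and the 7KC-IMQ group ate the same diet with 7-ketocholesterol (7KC), an oxidized form of cholesterol. The skin of all mice was then treated with a cream holding 5% imiquimod (IMQ) and was collected on Day 1. Each group had 2 libraries, replicates 1 and 2, and no library of vehicle-treated skin entered the comparison, so the values compare diets in treated skin and do not show the response to IMQ itself. The sources do not say how many animals gave each library, and the p-values therefore measure only the spread between these libraries.

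Interferons are secreted proteins that bind receptors on the cell surface and activate kinases of the JAK family and transcription factors of the STAT family. Type I and type III interferons act through a complex with STAT2 and IRF9 that binds the interferon-stimulated response element (ISRE), and interferon gamma acts through the gamma-activated site (GAS). The genes switched on in this way restrict viruses, sense foreign nucleic acid, attract T cells and present antigen. IMQ is an agonist of the endosomal receptor TLR7, which signals through MYD88 and IRF7, and in psoriasis-like skin plasmacytoid dendritic cells are known as a source of type I interferon.

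The elements that the genes are known for can be read in their promoters, and 4 are shown, for genes with large and with almost no difference between the groups. *Cxcl9*, *Oas1a* and *Isg15* had the largest differences in size between the groups, and *Ifit3* the smallest, among members with a motif match and a mean FPKM of at least 1. The sequences are the 250 bases before the start of the gene from RefSeq (GRCm38.p6), written 5′ to 3′ on the strand of the gene, with matches to the ISRE core GAAANNGAA or to the GAS letters TTCNNNGAA, on either strand, in capitals. The *Cxcl9* window is chr5:92328080-92328329 (minus strand), that of *Oas1a* is chr5:120907526-120907775 (minus strand), that of *Isg15* is chr4:156200819-156201068 (minus strand) and that of *Ifit3* is chr19:34583279-34583528 (plus strand).
Cxcl9: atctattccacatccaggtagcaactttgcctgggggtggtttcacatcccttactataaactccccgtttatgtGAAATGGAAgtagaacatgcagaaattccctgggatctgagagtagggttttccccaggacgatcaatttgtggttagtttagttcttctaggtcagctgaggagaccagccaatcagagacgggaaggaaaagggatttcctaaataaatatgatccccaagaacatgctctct
Oas1a: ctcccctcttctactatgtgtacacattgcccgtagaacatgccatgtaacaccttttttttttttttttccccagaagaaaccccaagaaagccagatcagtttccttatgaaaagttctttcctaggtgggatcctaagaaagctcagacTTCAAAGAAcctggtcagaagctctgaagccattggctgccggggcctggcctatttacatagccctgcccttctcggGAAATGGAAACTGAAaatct
Isg15: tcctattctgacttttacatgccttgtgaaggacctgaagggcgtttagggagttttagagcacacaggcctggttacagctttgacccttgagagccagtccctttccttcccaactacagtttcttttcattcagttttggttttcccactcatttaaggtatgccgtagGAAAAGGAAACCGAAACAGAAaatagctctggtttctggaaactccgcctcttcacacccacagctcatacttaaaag
Ifit3: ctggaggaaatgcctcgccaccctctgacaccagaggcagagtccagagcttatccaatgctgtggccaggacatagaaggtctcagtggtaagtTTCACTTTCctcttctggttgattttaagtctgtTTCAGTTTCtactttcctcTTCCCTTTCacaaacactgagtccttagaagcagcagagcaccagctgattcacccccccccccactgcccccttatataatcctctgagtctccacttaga

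In these windows *Cxcl9* held 1 ISRE core, whose first base was 175 bases before the start. *Isg15* held 3 ISRE cores that overlap each other, with first bases 78, 72 and 66 bases before the start, and so they form 1 run of capitals. *Oas1a* held 2 overlapping ISRE cores next to the start, at 20 and 14 bases, and a GAS match at 98 bases. *Ifit3* held 3 separate ISRE cores on the opposite strand, at 155, 121 and 102 bases. A promoter window was found for 30 of the 39 members, and 15 of them (50.0%) held an ISRE core, against 8.18% of 27025 genes with a window (7.13% of 32851 windows). A GAS match stood in 7 members (23.3%, against 8.13% of genes and 7.02% of windows), at least 1 of the motifs in 19 (63.3%, against 15.3% and 13.4%) and both in 3, which were *Oas1a*, *Gbp5* and *Bst2* (10%, against 0.881% and 0.752%). *Irf1* held a GAS match and no ISRE core, and *Irf7*, *Ifi35*, *Ifitm3* and *Tap1* held neither. A match is a run of letters and not a measured binding site, and a window without one says only that the letters are not in these bases.

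No interferon-stimulated gene passed the test between the diets. Of the 38 members tested, 0 had an adjusted p-value under 0.05 (limma with Benjamini-Hochberg adjustment over all genes tested), and the adjusted p-values lay between 0.352 and 0.996. Over all genes tested, 1 of 15896 (0.00629%) passed, the microRNA gene *Mir24-2*, which is named here after its value was seen. On the scale of log2(FPKM + 1), which understates the change of low genes, the differences of 7KC-IMQ minus Cont-IMQ lay between -0.31 for *Irf7* and 0.61 for *Cxcl9*, so that no member differed by 1 or more. The difference was positive in 31 members and negative in 7 (27 were positive after the libraries were rescaled to the same FPKM sum), whereas 48.7% of all genes tested had a positive difference (35.6% after that rescaling), and the median was 0.16 over the members and -0.006 over all genes. Before adjustment, limma gave p-values under 0.05 for 3 members higher in 7KC-IMQ, *Cxcl9*, *Oas2* and *Ifi35* (7.89% of members, against 7.50% of all genes), and for 1 lower member, *Irf7* (2.63%, against 5.47%). The 7KC-IMQ libraries were both higher than either Cont-IMQ library in 8 members (21.1%, against 23.9% of all genes) and both lower in 2 (5.26%, against 22.9%), and the former count was 5 (13.2%) after that rescaling, against 15.0% of all genes, or after quantile normalization, against 23.1%. With 2 libraries a group, the smallest p-value of an exact permutation test (two-sided) is 0.333. In bulk skin, fewer cells of a type and less RNA per cell cannot be told apart.

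**Figure D1:**
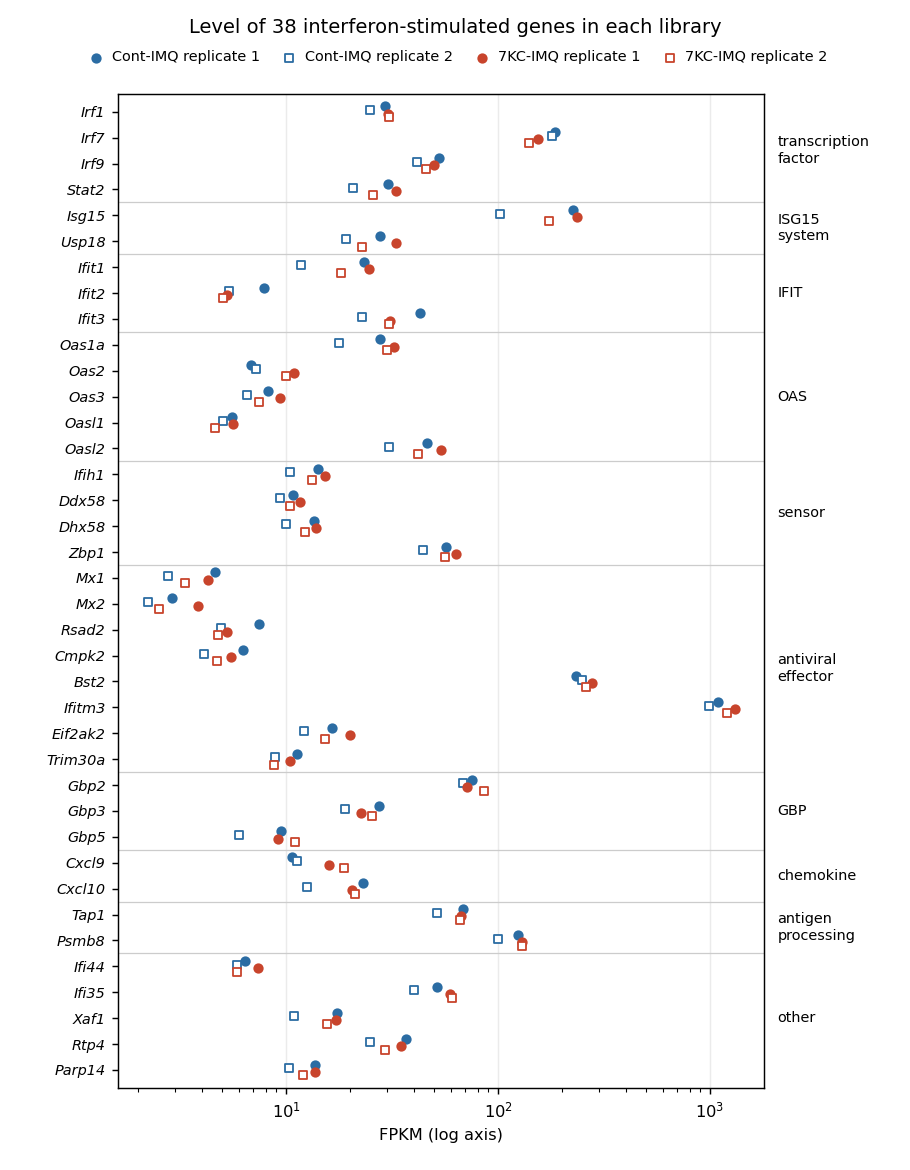
FPKM (log axis) of the 38 members tested in each of the 4 libraries, ordered by role, with filled circles for replicate 1 and open squares for replicate 2, blue for Cont-IMQ and red for 7KC-IMQ. *Ifitm3* lies furthest to the right, between 988 and 1312 FPKM, and for most genes the open blue square of Cont-IMQ replicate 2 is the lowest point.

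The spread within the Cont-IMQ group was as large as or larger than the difference between the groups for most members. Cont-IMQ replicate 2 was the lowest of the 4 libraries in 29 of the 38 members and the highest in 0, whereas it was the lowest in 26.8% of all genes tested. 7KC-IMQ replicate 1 was the highest in 18 members and the lowest in 0, and Cont-IMQ replicate 1 was the highest in 14. The median deviation of the members from their own mean over the libraries was 0.13 in Cont-IMQ replicate 1, -0.28 in Cont-IMQ replicate 2, 0.16 in 7KC-IMQ replicate 1 and -0.01 in 7KC-IMQ replicate 2, and that of all genes was 0.00 in each library. The members therefore stood at about the same level in Cont-IMQ replicate 1 as in 7KC-IMQ replicate 1, and lower in Cont-IMQ replicate 2. The gap between the Cont-IMQ libraries had a median of 0.41 over the members and 0.14 over all genes, and it exceeded the group difference in 32 of 38 members, against 54.1% of all genes. The gap between the 7KC-IMQ libraries had a median of 0.17 (0.11 over all genes) and exceeded the group difference in 20 members. Replicate 1 was above replicate 2 in 35 of 38 members in Cont-IMQ and in 30 of 38 in 7KC-IMQ, against 49.6% and 48.6% of all genes.

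**Figure D2:**
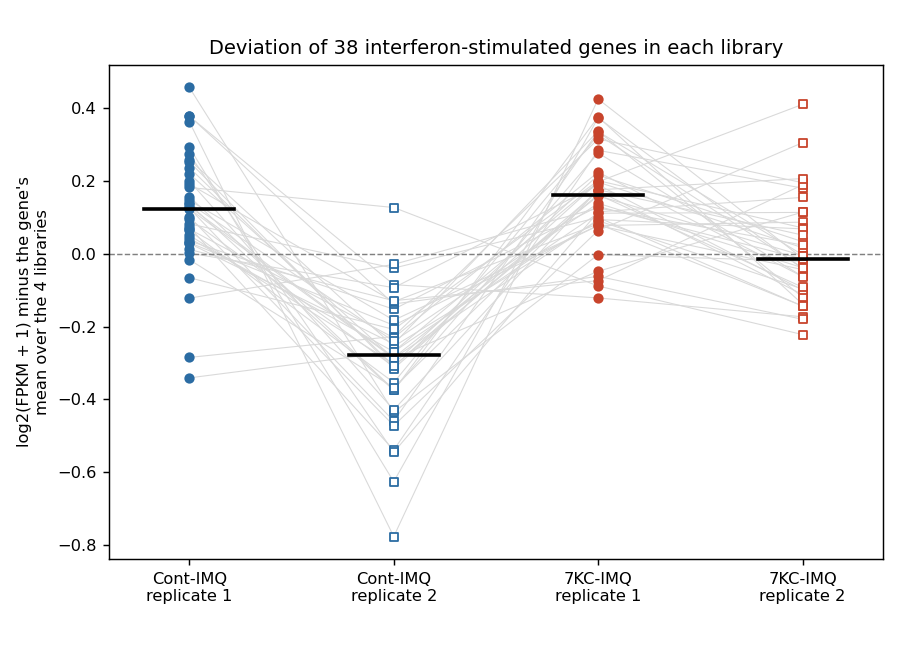
Deviation of each of the 38 members from its own mean over the 4 libraries on the log2(FPKM + 1) scale, by library, with grey lines joining the values of a gene and a black bar at the median. The medians are 0.13, -0.28, 0.16 and -0.01 from left to right, and the points of Cont-IMQ replicate 2 are mostly below 0.

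The direction of the group difference rested on that library. 7KC-IMQ replicate 1 was above Cont-IMQ replicate 2 in 36 of 38 members, and 7KC-IMQ replicate 2 was above it in 32. Against Cont-IMQ replicate 1, by contrast, 7KC-IMQ replicate 1 was higher in 22 members and 7KC-IMQ replicate 2 in 10. Without Cont-IMQ replicate 2 the median difference of the members was -0.03, with 18 of 38 positive, and without Cont-IMQ replicate 1 it was 0.36, with 36 positive. Leaving out 7KC-IMQ replicate 1 gave 0.11 with 25 positive, and leaving out 7KC-IMQ replicate 2 gave 0.23 with 32 positive. The higher members at an unadjusted limma p-value under 0.05 numbered 17 without Cont-IMQ replicate 1 (44.7% of members, against 7.49% of all genes in the same fit). They numbered 2 (5.26%) without any of the other 3 libraries, against 7.06% of all genes without Cont-IMQ replicate 2, 4.27% without 7KC-IMQ replicate 1 and 2.09% without 7KC-IMQ replicate 2. The lower ones numbered 4 without Cont-IMQ replicate 2 (10.5%, against 6.66%), 1 without 7KC-IMQ replicate 1 (2.63%, against 2.89%), and 0 without Cont-IMQ replicate 1 (against 7.18%) or 7KC-IMQ replicate 2 (against 1.77%). None of these fits gave a member an adjusted p-value under 0.05, with a lone library then assumed to vary like the other group. With 1 library against 2, which separates more easily, higher members without overlap numbered 32 without Cont-IMQ replicate 1 (84.2%, against 38.5% of all genes) and 22 without 7KC-IMQ replicate 2 (57.9%, against 33.3%). They numbered 8 without Cont-IMQ replicate 2 (21.1%, against 38.8%) and 10 without 7KC-IMQ replicate 1 (26.3%, against 35.8%). The lower ones numbered 14 without Cont-IMQ replicate 2 (36.8%, against 38.6%) and 6 without 7KC-IMQ replicate 1 (15.8%, against 35.2%). They numbered 2 (5.26%) without Cont-IMQ replicate 1, against 39.1%, and 2 without 7KC-IMQ replicate 2, against 33.5%. Hair follicle genes set both Cont-IMQ libraries apart, in opposite directions. The summed FPKM of 20 such genes was 1695 in Cont-IMQ replicate 2, 131 in Cont-IMQ replicate 1, and 493 and 437 in the 7KC-IMQ libraries. The part of these hair follicle genes in the level of the interferon-stimulated genes was not tested.

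**Figure D3:**
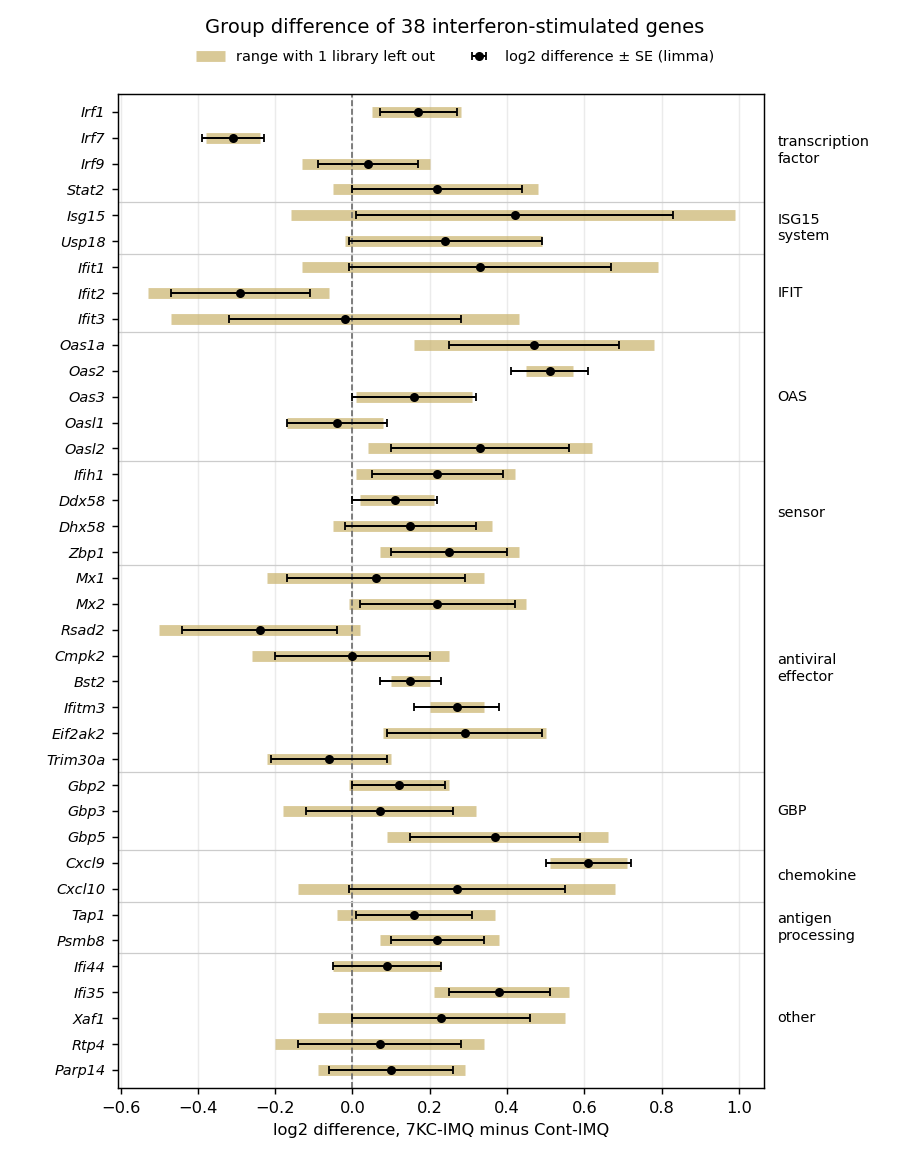
Difference of 7KC-IMQ minus Cont-IMQ in log2(FPKM + 1) for the 38 members, ordered by role, with black points and bars for the limma estimate and its standard error (SE), and yellow bands for the range of the difference when 1 library is left out. The differences lie between -0.31 and 0.61, and the bands of 21 members cross 0, among them those of *Isg15*, *Ifit1*, *Ifit3* and *Cxcl10*.

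The transcription factors included the member with the lowest difference. *Irf7*, the factor that amplifies type I interferon production downstream of TLR7 (GRCm38 chr7:141262706-141266481, minus strand, 10 exons in its longest coding transcript), stood at 186 and 179 FPKM in Cont-IMQ and at 154 and 140.3 in 7KC-IMQ. The groups did not overlap, and the difference was -0.31 ± 0.08 (SE, n = 2 per group, limma adjusted p = 0.356). With 1 library left out it lay between -0.38 and -0.24, and for groups without overlap this cannot change the sign. *Irf9*, the DNA-binding part of the ISRE complex, stood at 52.4 and 41.5 FPKM in Cont-IMQ and at 49.9 and 45.8 in 7KC-IMQ, and the groups overlapped. *Stat2*, its partner, was at 30.2 and 20.6 in Cont-IMQ and at 32.9 and 25.8 in 7KC-IMQ, with replicate 1 the higher in both groups. *Irf1*, which carries a GAS match and is known as an early target of interferon gamma, stood at 29.2 and 24.8 in Cont-IMQ and at 30.2 and 30.4 in 7KC-IMQ, a difference of 0.17 ± 0.10 (SE). The 7KC-IMQ libraries of *Irf1* thus differed by less than the Cont-IMQ libraries, and lay just above the higher of them.

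In the ISG15 system, *Isg15* had the widest gap within a group of all members tested. This gene, which encodes a ubiquitin-like protein that is joined to other proteins, stood at 226 FPKM in Cont-IMQ replicate 1 and at 102 in Cont-IMQ replicate 2, while 7KC-IMQ replicates 1 and 2 had 236 and 174. The difference between the groups was 0.42 ± 0.41 (SE, limma adjusted p = 0.701), while the Cont-IMQ libraries differed from each other by 1.15 on the same scale. Without Cont-IMQ replicate 2 the difference of *Isg15* was -0.16, and without Cont-IMQ replicate 1 it was 0.99. *Usp18*, the protease that removes ISG15 and also restrains the type I receptor, stood at 27.8 and 19.2 FPKM in Cont-IMQ and at 33.0 and 22.8 in 7KC-IMQ. Replicate 1 was the higher in both groups, and the gap was 0.51 in each, against a group difference of 0.24.

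The IFIT genes, which encode proteins that bind foreign RNA and lie together on chromosome 19, did not move as a group. *Ifit1* stood at 23.2 and 11.8 FPKM in Cont-IMQ and at 24.6 and 18.2 in 7KC-IMQ (difference 0.33 ± 0.34, SE). *Ifit3* stood at 43.0 and 22.7 in Cont-IMQ and at 31.0 and 30.6 in 7KC-IMQ (difference -0.02 ± 0.30, SE), so that both 7KC-IMQ libraries lay between the Cont-IMQ libraries. *Ifit2* was one of the 2 members that were lower without overlap, with 7.82 and 5.40 FPKM in Cont-IMQ and 5.24 and 5.02 in 7KC-IMQ (difference -0.29 ± 0.18, SE, limma adjusted p = 0.546). Without Cont-IMQ replicate 1 the difference of *Ifit2* was -0.06, against -0.53 without Cont-IMQ replicate 2. Reads of *Ifit3* are uncertain, since 41.1% of the 75-base windows of its transcripts also occur in *Ifit3b*.

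The OAS genes, which encode synthetases whose product activates RNase L and lie on chromosome 5, held 2 of the 8 members that were higher without overlap. *Oas2* (chr5:120730333-120749853, minus strand, 12 exons) stood at 6.85 and 7.17 FPKM in Cont-IMQ and at 10.9 and 9.95 in 7KC-IMQ, or about 392, 408, 661 and 561 estimated reads. The gaps within the groups were 0.06 and 0.11, below the group difference of 0.51 ± 0.10 (SE, n = 2 per group, limma adjusted p = 0.352). The difference of *Oas2* lay between 0.45 and 0.57 with 1 library left out. *Oas1a*, whose promoter is shown above, stood at 27.6 and 17.7 in Cont-IMQ and at 32.1 and 29.8 in 7KC-IMQ (difference 0.47 ± 0.22, SE, limma adjusted p = 0.447), and 47.6% of its 75-base windows also occur in *Oas1g*. The Cont-IMQ libraries of *Oas1a* differed by 0.61, more than the groups, and without Cont-IMQ replicate 2 the difference was 0.16. *Oas3* stood at 8.25 and 6.52 in Cont-IMQ and at 9.31 and 7.45 in 7KC-IMQ, and *Oasl2*, an OAS-like protein, at 46.1 and 30.4 and at 53.5 and 42.1. In both genes replicate 1 was the higher in each group and the groups overlapped. *Oasl1*, which is known to limit the translation of IRF7, was nearly level, with 5.55 and 5.02 in Cont-IMQ and 5.63 and 4.60 in 7KC-IMQ.

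The 4 sensors had small positive differences of 0.11 to 0.25, all with overlap. *Ifih1* (MDA5), which detects long double-stranded RNA, stood at 14.1 and 10.4 FPKM in Cont-IMQ and at 15.2 and 13.3 in 7KC-IMQ. *Ddx58* (RIG-I), which detects RNA with a triphosphate end, was at 10.8 and 9.36 and at 11.6 and 10.4, and *Dhx58* (LGP2), which modulates the other two, at 13.6 and 9.95 and at 13.9 and 12.3. *Zbp1*, a sensor of Z-form nucleic acid that can start necroptosis, had the highest level of the sensors, with 56.6 and 44.1 in Cont-IMQ and 63.6 and 55.9 in 7KC-IMQ (difference 0.25 ± 0.15, SE, limma adjusted p = 0.531). All 4 shared one order of libraries at the ends, with 7KC-IMQ replicate 1 the highest and Cont-IMQ replicate 2 the lowest.

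Among the 8 antiviral effectors, the genes with the highest levels were the ones without overlap. *Ifitm3*, which blocks the entry of viruses at endosomal membranes, had the highest mean FPKM of all members (1147), with 1090.3 and 988 in Cont-IMQ and 1312 and 1199 in 7KC-IMQ, or 7138 to 10146 estimated reads. Its difference was 0.27 ± 0.11 (SE, limma adjusted p = 0.413), and lay between 0.20 and 0.34 with 1 library left out. *Bst2* (tetherin), which holds budding virus at the cell surface, stood at 234 and 249.6 in Cont-IMQ and at 278 and 259 in 7KC-IMQ (difference 0.15 ± 0.08, SE, limma adjusted p = 0.511). *Bst2* was one of 3 members, with *Oas2* and *Cxcl9*, whose lowest library was Cont-IMQ replicate 1.

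The remaining effectors overlapped between the groups. *Eif2ak2* (PKR), the kinase that stops translation on double-stranded RNA, stood at 16.5 and 12.1 FPKM in Cont-IMQ and at 20 and 15.3 in 7KC-IMQ. The dynamin-like GTPases had the lowest levels of the members tested, *Mx1* with 4.59 and 2.77 in Cont-IMQ and 4.29 and 3.34 in 7KC-IMQ, and *Mx2* with 2.90 and 2.22 and with 3.83 and 2.52. These values correspond to about 74 to 223 reads. The neighbours *Rsad2* (viperin) and *Cmpk2*, a mitochondrial nucleotide kinase, lie together on chromosome 12 and were both highest in Cont-IMQ replicate 1. *Rsad2* stood at 7.47 and 4.92 in Cont-IMQ and at 5.24 and 4.75 in 7KC-IMQ (difference -0.24 ± 0.20, SE), and *Cmpk2* at 6.28 and 4.10 and at 5.48 and 4.69 (difference 0.00 ± 0.20, SE). *Trim30a*, a ubiquitin ligase that restrains inflammatory signaling, was also highest in Cont-IMQ replicate 1, with 11.3 and 8.83 in Cont-IMQ and 10.4 and 8.75 in 7KC-IMQ.

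The GBP genes, which encode GTPases that attack vacuoles of intracellular pathogens and respond strongly to interferon gamma, showed another order of the 7KC-IMQ libraries. In all 3, 7KC-IMQ replicate 2 was above 7KC-IMQ replicate 1, whereas replicate 1 was the higher of these libraries in 30 of 38 members. This order was not particular to the GBP genes, since *Irf1*, *Cxcl9*, *Cxcl10*, *Psmb8* and *Ifi35* had it too. *Gbp2* stood at 75.4 and 68.3 FPKM in Cont-IMQ and at 71.0 and 85.4 in 7KC-IMQ, *Gbp3* at 27.3 and 18.9 and at 22.5 and 25.3, and *Gbp5* at 9.42 and 6.00 and at 9.15 and 11.0. The groups overlapped in each of them, and the largest difference, that of *Gbp5*, was 0.37 ± 0.22 (SE, limma adjusted p = 0.537). *Gbp3* was highest in Cont-IMQ replicate 1, while *Gbp2* and *Gbp5* were highest in 7KC-IMQ replicate 2.

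The chemokines included the member with the largest difference. *Cxcl9*, a ligand of CXCR3 that attracts T cells and is induced mainly by interferon gamma (chr5:92321347-92328079, minus strand, 4 exons), stood at 10.7 and 11.3 FPKM in Cont-IMQ and at 16.0 and 18.7 in 7KC-IMQ, or about 439, 459, 699 and 753 estimated reads. The groups did not overlap, and the difference was 0.61 ± 0.11 (SE, n = 2 per group, limma adjusted p = 0.352), with a range of 0.51 to 0.71 when 1 library was left out. *Cxcl10*, another ligand of CXCR3, stood at 23 and 12.6 in Cont-IMQ and at 20.5 and 21.1 in 7KC-IMQ, so that Cont-IMQ replicate 1 was its highest library. Its difference was 0.27 ± 0.28 (SE), and -0.14 without Cont-IMQ replicate 2. *Cxcl11*, the other CXCR3 ligand, was listed at 0.189 and 0 FPKM in Cont-IMQ and at 0.0440 and 0.0478 in 7KC-IMQ, or about 4, 0, 1 and 1 reads, and was the member that was not tested. In the reference, 39.8% of its windows are shared with *Gm2673*, and at these reads no difference was detectable.

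Of the antigen processing genes, 1 of 2 was separated between the groups. *Psmb8*, a subunit of the immunoproteasome, stood at 124 and 99.7 FPKM in Cont-IMQ and at 130.1 and 130.3 in 7KC-IMQ, without overlap (difference 0.22 ± 0.12, SE, limma adjusted p = 0.510). *Tap1*, which carries peptides into the endoplasmic reticulum, stood at 68.4 and 51.2 and at 67.0 and 65.8, with Cont-IMQ replicate 1 the highest. *Ifi35*, an interferon-induced leucine zipper protein (chr11:101448407-101458698, plus strand, 7 exons), stood at 51.7 and 40.3 in Cont-IMQ and at 59.2 and 60.5 in 7KC-IMQ, a difference of 0.38 ± 0.13 (SE, n = 2 per group, limma adjusted p = 0.370). Its Cont-IMQ libraries differed by less than the groups, and without Cont-IMQ replicate 2 the difference was 0.21.

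The last 4 members overlapped between the groups. *Ifi44* stood at 6.36 and 5.89 FPKM in Cont-IMQ and at 7.38 and 5.86 in 7KC-IMQ. *Xaf1*, a partner of the apoptosis inhibitor XIAP, was at 17.4 and 10.9 and at 17.1 and 15.6, *Rtp4*, a receptor chaperone, at 36.8 and 24.9 and at 34.9 and 29.1, and *Parp14*, an ADP-ribosyltransferase, at 13.7 and 10.3 and at 13.7 and 12. In *Xaf1*, *Rtp4* and *Parp14*, Cont-IMQ replicate 1 and 7KC-IMQ replicate 1 were nearly level and Cont-IMQ replicate 2 was the lowest.

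Across the roles, the median difference was highest for the chemokines tested (0.44, 2 genes), the ISG15 system (0.33, 2 genes) and the OAS genes (0.33, 5 genes). It was 0.19 for antigen processing, 0.18 for the sensors, 0.12 for the GBP genes, 0.11 for the antiviral effectors, 0.10 for the transcription factors and for the remaining group, and -0.02 for the IFIT genes. Without Cont-IMQ replicate 2, these medians were 0.25, -0.09 and 0.04 in the first 3 groups, 0.01, 0.02, 0.05, -0.07, -0.09 and -0.09 in the next, and -0.47 for the IFIT genes. With 2 to 8 genes a role, these medians describe the members and rank nothing.

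The interferons themselves were at or near 0 at this depth. Of 21 ligand genes, 19 were listed at 0 in all libraries, among them *Ifnb1* and all 13 *Ifna* genes of the list, and none reached the level for testing. *Ifng* was listed at 0.0651 and 0.0658 FPKM in Cont-IMQ and at 0.183 and 0.0660 in 7KC-IMQ, and *Ifnz* at 0 in Cont-IMQ replicates 1 and 2 and at 0.0484 and 0.158 in 7KC-IMQ. These levels are those of a few reads at most, and an exact 0 in FPKM can also be a failed estimate, so no difference between the groups was detectable.

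Of 15 genes for receptors and proximal signaling, 0 passed the test, 9 had a positive difference (against 48.7% of all genes) and the median was 0.03. The chains of the type I receptor stood at 8.12 and 8.41 FPKM in Cont-IMQ and at 7.71 in both 7KC-IMQ libraries for *Ifnar1*, and at 21.7 and 26.3 and at 27.3 and 26.1 for *Ifnar2*. *Socs1*, an inhibitor of JAK kinases that cytokines induce, had the largest difference of the list, with 9.71 and 5.94 in Cont-IMQ and 13.8 and 14.0 in 7KC-IMQ (0.79 ± 0.22, SE, limma adjusted p = 0.356). *Jak2*, a kinase of the interferon gamma receptor, had a difference of 0.20, and the lowest differences were those of the phosphatase *Ptpn6* (-0.19), the type III receptor chain *Ifnlr1* (-0.17) and the STAT inhibitor *Pias1* (-0.15).

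Of 19 sensors and adaptors upstream of interferon, 0 passed the test, 12 had a positive difference (against 48.7% of all genes) and the median was 0.09. *Tlr7*, the receptor that IMQ binds, was low, with 0.813 and 1.55 FPKM in Cont-IMQ and 1.19 and 1.85 in 7KC-IMQ, and the groups overlapped. *Myd88*, the adaptor of TLR7 and of the IL-1 receptor family, stood at 53.9 and 49.8 in Cont-IMQ and at 70.4 and 67.8 in 7KC-IMQ (difference 0.41 ± 0.08, SE, limma adjusted p = 0.352). *Ticam1*, the adaptor of TLR3, was at 8.72 and 7.91 and at 10.4 and 11.4 (difference 0.35 ± 0.10, SE, limma adjusted p = 0.356), and *Tmem173* (STING) at 10.3 and 7.36 and at 12.5 and 10.2 with overlap. At the lower end stood *Irf5* (-0.19), *Traf6* (-0.17) and *Unc93b1* (-0.13), the transporter of endosomal Toll-like receptors.

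A longer list of other interferon-stimulated genes had the same order of libraries in a weaker form. Of 96 genes listed, 93 were tested and 0 passed, with a median of 0.11. The difference was positive in 63 of 93, against 48.7% of all genes. Before adjustment, 13 of 93 were higher and 3 of 93 lower at a limma p-value under 0.05, against 7.50% and 5.47% of all genes. Without overlap, 31 of 93 were higher and 8 of 93 lower, against 23.9% and 22.9% of all genes. The highest differences were those of *Slfn4* (0.64), with 3.17 and 3.08 FPKM in Cont-IMQ and 6.49 and 4.55 in 7KC-IMQ, *Cd274* (PD-L1, 0.57), with 16.9 and 14.6 and with 20 and 28.2, and *Slfn9* (0.50). The lowest were those of *Ifit1bl1* (-0.61), with 2.68 and 1.83 and with 1.12 and 1.11, *Ifitm1* (-0.34) and the chemokine *Ccl5* (-0.31). The median deviations of this list in the libraries were 0.04, -0.15, 0.09 and 0.01, in the order Cont-IMQ replicates 1 and 2 and 7KC-IMQ replicates 1 and 2, and without Cont-IMQ replicate 2 its median difference was 0.00.

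Of 10 MHC class I genes, which present the peptides that *Tap1* and *Psmb8* supply, 0 passed the test, with a median of 0.09. The difference was positive in 9, against 48.7% of all genes. Without overlap, 5 were higher and 0 lower, against 23.9% and 22.9% of all genes. The highest differences were those of *H2-Q4* (0.24), *H2-Q7* (0.20) and *H2-T10* (0.20), and the lowest those of *H2-M3* (-0.10), *H2-D1* (0.03) and *H2-Q6* (0.07). *H2-D1* stood at 1100.3 and 1147 FPKM in Cont-IMQ and at 1178 and 1112 in 7KC-IMQ. Genes of this family resemble each other closely, so their reads may be shared between members. When the libraries were rescaled to the same FPKM sum, the differences of *H2-D1* and *H2-Q6* were -0.05 and -0.01, and after quantile normalization that of *H2-D1* was -0.08.

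Marker genes of other cell types were read in the same libraries, because bulk skin mixes them. Counts of positive differences in these lists stand beside 48.7% of all genes. Of 10 genes of plasmacytoid dendritic cells, 6 were tested and 0 passed. The defining marker *Siglech* was listed at 0.0296 and 0.179 FPKM in Cont-IMQ and at 0.0830 and 0 in 7KC-IMQ, and the summed FPKM of the list (1462 to 1702 in Cont-IMQ, 1609 and 1911 in 7KC-IMQ) was mostly *Ly6d*, which keratinocytes are also known to express. Of 14 genes of T and NK cells in the files, 11 were tested and 0 passed, with 4 positive differences, and the summed FPKM was 32.1 and 26.3 in Cont-IMQ and 26 and 23.5 in 7KC-IMQ. The median difference of the T and NK cell genes was -0.07, and *Cd8a* and *Klrb1c* were at or below 0.126 FPKM in all libraries. Of 15 macrophage and monocyte genes, 0 passed and 5 had a positive difference, with summed FPKM of 1096 and 1326 in Cont-IMQ and 1057 and 1122 in 7KC-IMQ.

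The summed FPKM of the Langerhans and dendritic cell list was 1373 and 973 in Cont-IMQ and 1354 and 1005 in 7KC-IMQ, with *Cd74* at 534 and 371 and at 539.9 and 391, and 0 of 13 genes passed the test. The sum came mostly from *Cd74*, *H2-Ab1*, *H2-Aa* and *H2-Eb1*. In this sum replicate 1 was the higher in both groups, as it was in 30 or more of the 38 interferon-stimulated genes in each group. Of 8 fibroblast genes, 0 passed the test and 6 had a positive difference, with summed FPKM of 3556 and 2620.4 in Cont-IMQ and of 3342 and 2945 in 7KC-IMQ. Their median deviations were 0.19, -0.17, 0.13 and 0.01 in the same order of libraries, beside 0.13, -0.28, 0.16 and -0.01 for the interferon-stimulated genes. Both medians were thus lowest in Cont-IMQ replicate 2, but the fibroblast genes were divided. *Col1a1*, *Col1a2*, *Col3a1* and *Lum* were lowest in Cont-IMQ replicate 2, *Pdgfra*, *Dpt* and *Fbln1* in Cont-IMQ replicate 1 and *Dcn* in 7KC-IMQ replicate 2. *Dpt* and *Fbln1* were highest in Cont-IMQ replicate 2. The 14 epidermal genes that respond to IL-17 had a median difference of 1.25 and summed FPKM of 4749 and 4682 in Cont-IMQ and of 11247 and 20897 in 7KC-IMQ, with 0 passing the test. Of these 14 genes, 13 were higher in 7KC-IMQ without overlap, and of the interferon-stimulated genes 8 of 38 (21.1%), against 23.9% of all genes. The IL-17 list was chosen with earlier results of these data known, so its count tests nothing. Neutrophil genes had summed FPKM of 2701 and 2279 in Cont-IMQ and of 7346 and 13915 in 7KC-IMQ. Most of these sums came from *S100a8* and *S100a9*, which the IL-17 list holds too. *Il1r2*, the next highest of them, was lower in 7KC-IMQ, with 102 and 127 in Cont-IMQ and 100.1 and 76.6 in 7KC-IMQ. *Cxcr2* and *Hdc*, which the IL-17 list does not hold, were higher without overlap, with differences of 0.57 and 0.61. Of 12 neutrophil genes tested, 0 passed, 9 had a positive difference and the median was 0.53. Before adjustment, 6 were higher and 0 lower at a limma p-value under 0.05, against 7.50% and 5.47% of all genes. Without overlap, 8 were higher and 3 lower, against 23.9% and 22.9% of all genes. The part of any of these cell types in the levels of the interferon-stimulated genes was not tested.

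**Figure D4:**
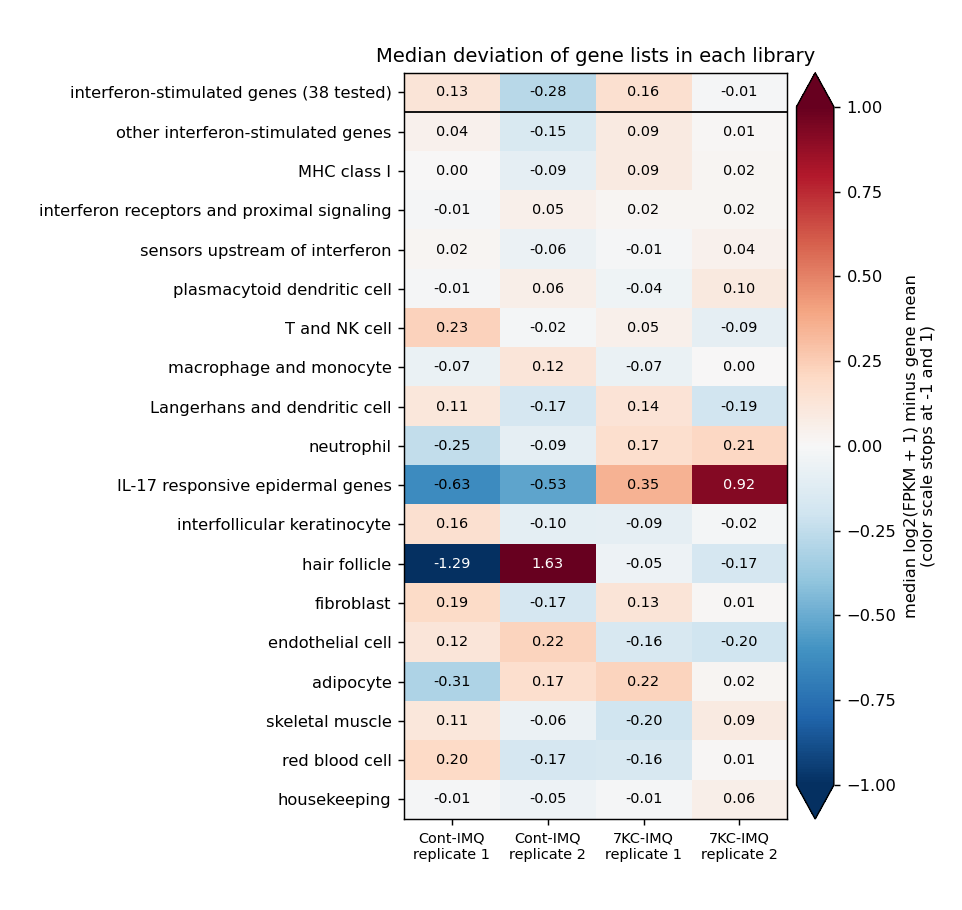
Median deviation of the tested genes of each list from their own mean over the 4 libraries on the log2(FPKM + 1) scale, with 1 row a list, 1 column a library, red above and blue below the mean. The interferon-stimulated genes (top row, 0.13, -0.28, 0.16 and -0.01) are lowest in Cont-IMQ replicate 2, the IL-17 responsive genes (-0.63, -0.53, 0.35 and 0.92) differ by diet, and the hair follicle genes (-1.29, 1.63, -0.05 and -0.17) set the Cont-IMQ libraries apart.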

How the data were processed

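RNA sequencing of IMQ-treated dorsal skin was analysed in 4 libraries, grouped by the sample labels. The authors aligned single-end reads of 75 bases to mm10, and the values they deposited are FPKM per gene symbol. The submitters' processing notes name TopHat2 2.1.1, Bowtie2 2.2.8, SAMtools 0.1.18 and Cuffdiff 2.2.1, and the annotation is not given in the sources used here. The values were not rescaled. Log2(FPKM + 1) of 15896 genes whose mean FPKM reached 0.1 was compared by limma 3.58.1 in R 4.3.3 (lmFit and eBayes with a variance trend, two-sided, Benjamini-Hochberg adjustment, threshold 0.05). The fit was tested on simulated data.

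Depth was estimated from the steps of low FPKM values of genes with a single transcript, between 14990000 and 16190000 reads per library. At these depths 73.1% to 75.6% of 521 to 548 such genes lay within 0.1 of a whole read. The depth with the largest share was kept, so the 20% by chance holds only for a depth fixed beforehand. Transcript lengths were reduced for the size of fragments. With full lengths, the shares were 41.8% to 46.0%, at 13820000 to 15120000 reads. Estimated reads cover counting error only, and a value of 3 reads or fewer was read as background. Summed FPKM lay between 630272.0 and 702218.2. Coordinates, exon numbers and shared 75-base windows are those of GENCODE M21, on GRCm38 (mm10), and promoters from RefSeq (GRCm38.p6).

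The members, lists and tests were chosen with earlier results of these data known. The rule for named genes covered every member, the 3 highest and 3 lowest differences of each interferon list where the mean FPKM was 1 or more, and *Tlr7*, *Ifnb1*, *Ifng*, *Ifnar1* and *Ifnar2*, and 1 further gene that is not reported here. Other named marker genes were chosen after their values were seen. Alternatives were another pseudocount, other filters, other scalings, a constant prior variance, a block by replicate number, and each library left out in turn.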

Additional observations from a re-analysis of the deposited data

How the results depend on the processing

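Of the 38 members tested, 0 had an adjusted p-value under 0.05 in the fit as reported or under any alternative run. At the estimated depth, the interferons and *Cxcl11* had too few reads for a difference to be detectable. The genes called by limma over all genes tested numbered 1, and 2 with a pseudocount of 0.1, with a range of 1 to 9 when 1 library was left out (9 without Cont-IMQ replicate 1 and 5 without Cont-IMQ replicate 2). Higher members at an unadjusted p-value under 0.05 numbered 3 as reported and 2 to 17 with a library left out, and lower ones 1 and 0 to 4. Higher members without overlap numbered 8 (21.1%, against 23.9% of all genes). They numbered 5 (13.2%) after rescaling to the same FPKM sum, against 15.0%, and 5 after quantile normalization, against 23.1%. With a library left out, where groups separate more easily, their range was 8 to 32 (21.1% to 84.2%), against 33.3% to 38.8% of all genes. Lower members numbered 2 (5.26%, against 22.9%). Their range with a library left out was 2 to 14 (5.26% to 36.8%), against 33.5% to 39.1%. The cause of these changes was not tested. The median of the members was 0.164 as reported, 0.088 after rescaling to the same FPKM sum, which moved the median of all genes to -0.066, and 0.141 to 0.175 under the other scalings, filters and fits.

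With the replicate number as a block, 6 members were higher at an unadjusted limma p-value under 0.05 in place of 3 (15.8% of members, against 6.15% of all genes under the block), and 0 had an adjusted p-value under 0.05. The labels do not say that a number pairs the libraries, and the deviations of libraries with the same number correlated by 0.0651 over all genes tested and by 0.249 over the members.

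Of 65 named genes with a fit, 7 changed sign under a scaling. After rescaling to the same FPKM sum, the difference was -0.05 for *Irf9*, 0.00 for *Mx1*, -0.01 for *Gbp3*, -0.01 for *Rtp4*, -0.05 for *H2-D1* and -0.01 for *H2-Q6*. After quantile normalization it was -0.02 for *Irf9*, 0.04 for *Cmpk2* and -0.08 for *H2-D1*. With 1 library left out, 25 named genes changed sign. Their ranges were -0.13 to 0.20 for *Irf9*, -0.05 to 0.48 for *Stat2*, -0.16 to 0.99 for *Isg15*, -0.02 to 0.49 for *Usp18*, -0.13 to 0.79 for *Ifit1*, -0.47 to 0.43 for *Ifit3*, -0.17 to 0.08 for *Oasl1* and -0.05 to 0.36 for *Dhx58*. They were -0.22 to 0.34 for *Mx1*, -0.01 to 0.45 for *Mx2*, -0.50 to 0.02 for *Rsad2*, -0.26 to 0.25 for *Cmpk2*, -0.22 to 0.10 for *Trim30a*, -0.01 to 0.25 for *Gbp2*, -0.18 to 0.32 for *Gbp3* and -0.14 to 0.68 for *Cxcl10*. For the others they were -0.04 to 0.37 (*Tap1*), -0.05 to 0.23 (*Ifi44*), -0.09 to 0.55 (*Xaf1*), -0.20 to 0.34 (*Rtp4*), -0.09 to 0.29 (*Parp14*), -0.25 to 0.00 (*Unc93b1*), -0.01 to 0.07 (*H2-D1*), -0.02 to 0.16 (*H2-Q6*) and -0.03 to 0.46 (*Tlr7*).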

Other observations

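Of 9 endothelial marker genes, 0 had a positive difference and 8 were lower in 7KC-IMQ without overlap, against 22.9% of all genes, with a median of -0.40. Their summed FPKM was 76.6 and 85.1 in Cont-IMQ and 64.4 and 61.3 in 7KC-IMQ, and 0 passed the adjusted test (lowest adjusted p of limma = 0.352).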
